A study of Homo sapiens with 6 samples.

Results

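Semaphorins and their receptors, the plexins and neuropilins, were read from RNA sequencing of HPC, a human podocyte line a culture model of the epithelial cell on the outer face of the glomerular filter. Members were taken by gene name: semaphorins of classes 3 to 7, plexins A to D and the neuropilins NRP1 and NRP2. This gave 31 genes, 20 of them semaphorins, 9 plexins and 2 neuropilins, in 32 listings among the 38648 listings of each gene table. SEMA7A is listed at 2 places. There were 3 libraries from cells given a lentivirus that overexpresses PRDM16, a zinc finger regulator of transcription, and 3 from cells given a negative control (NC) lentivirus. All 6 samples came from cells of genotype WT, kept in RPMI-1640 medium with 10% fetal bovine serum. These cells were all exposed to high glucose, so the control cells share the glucose exposure. The labels give 24 h for every sample. The sources used here do not give the glucose concentration, the promoter of the lentivirus or whether the replicates are separate cultures, so p-values measure the spread between these libraries, which may be technical.

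Semaphorins are secreted or membrane-bound guidance proteins that steer growth cones and vessel tips and also act on cell adhesion and the actin skeleton. Plexins are their main signalling receptors and act on small GTPases. Neuropilins bind class 3 semaphorins, and also VEGF, but lack a signalling domain of their own and work with class A plexins. In the kidney, podocytes make class 3 semaphorins during development, and in mice an excess of Sema3a in podocytes causes protein loss into the urine.

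The libraries held 20147135 to 41280350 counts in total. A listing at 0 may hide up to 3 counts, which is 0.0727 to 0.149 per 1000000 counts of a library before scaling. CPM below are counts per 1000000, scaled between libraries. PRDM16 itself had 11, 18 and 24 counts in the PRDM16 libraries and 0 counts in each NC library, with an adjusted p of 7.7e-04 in edgeR's quasi-likelihood test. The pooled level was at least 13.9-fold higher in PRDM16 libraries than 3 counts in the NC group would give, and an exact two-sided permutation test gave p = 0.1, the smallest that 3 libraries against 3 allow. Of the defining podocyte markers, NPHS1 had 0 to 3 counts and WT1 had 1 to 4 counts per library, while PODXL, CD2AP, KIRREL1 and SYNPO were present, so the podocyte label is only partly borne out by these markers. Endothelial markers matter because endothelium is rich in several plexins and neuropilins. They summed to between 13.5 and 15.8 CPM in PRDM16 libraries and between 12.4 and 14.3 CPM in NC libraries. EHD3 alone had 8.74 to 11.4 CPM over all libraries. VWF had 36 to 109 counts and TEK 14 to 31 counts, while PECAM1 and EMCN had 0 to 2 counts. Immune markers summed to between 179 and 183 CPM in PRDM16 libraries and between 137 and 163 CPM in NC libraries, nearly all of it CD68, with PTPRC at 8 to 22 counts and CD3E and NKG7 at 0. Their part in the results was not tested. In such bulk RNA a smaller number of cells of one type and less RNA per cell cannot be told apart.

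The line had a broad set of receptors and a set of ligands that 1 gene led. By the deposited TPM, which are scaled by exon length and can be compared between genes, 24 of the 32 listings averaged at least 1 TPM over the 6 libraries and 15 averaged at least 10 TPM. Those at 1 TPM or more were 14 of 21 semaphorin listings, 8 of 9 plexins and both neuropilins. The secreted ligand SEMA3B had the highest mean, at 183 ± 15.3 TPM (SD, n = 6), above 93.8% of all tested genes. It was followed by the receptor PLXNB2 at 153 ± 11.1 TPM and the secreted ligand SEMA3C at 73.7 ± 16.9 TPM. SEMA3B lay above PLXNB2 in each of the 6 libraries, although their ranges over libraries overlap, and PLXNB2 lay above SEMA3C with no overlap.

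**Figure D1:**
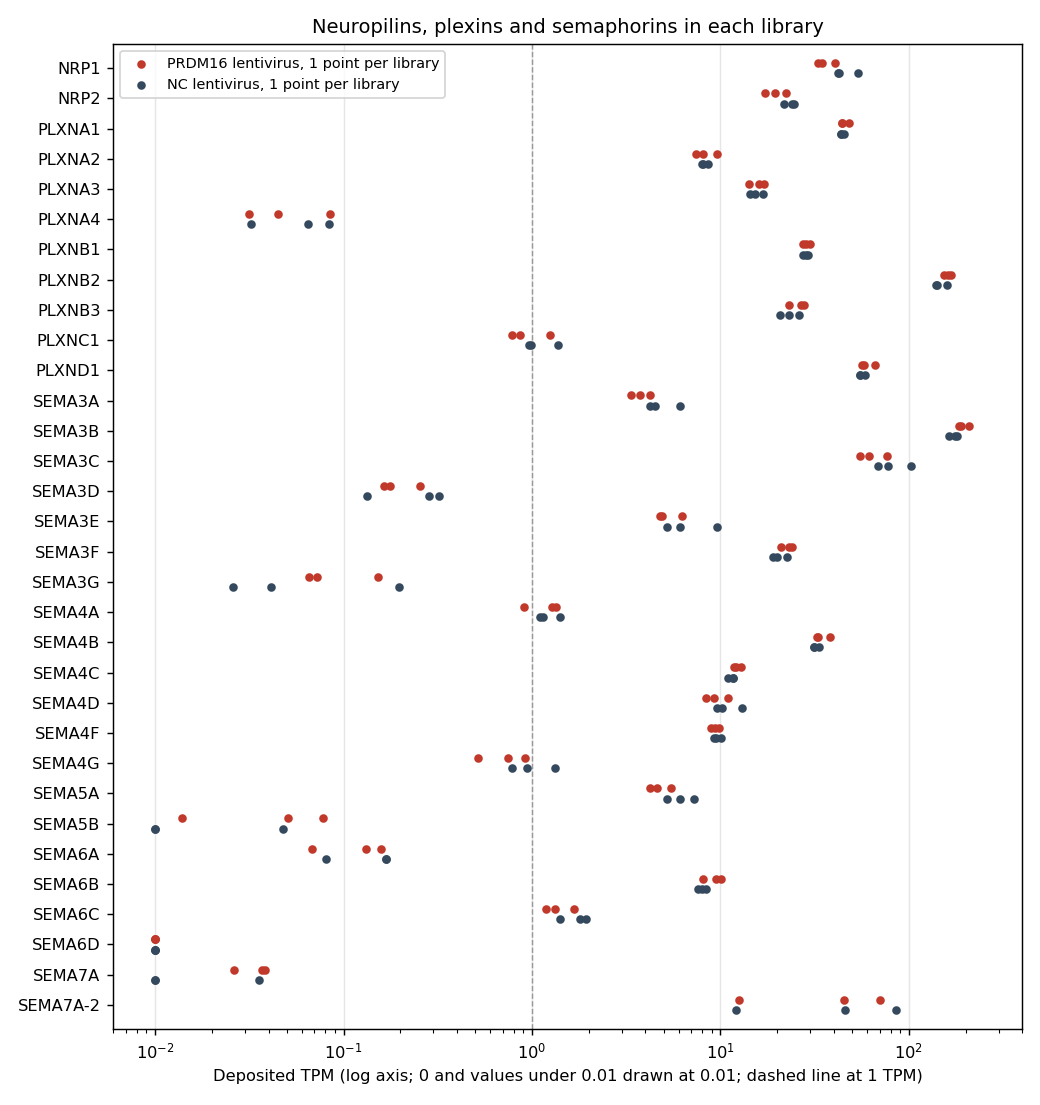
Deposited TPM (log axis) of each of the 32 listings, with 1 point per library and the PRDM16 libraries drawn above the NC libraries. SEMA3B and PLXNB2 lie farthest to the right, SEMA6D is at 0 in all 6 libraries, and SEMA7A-2 spreads most among the listings above 1 TPM.

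Neuropilins were both present, NRP1 (chr10:33177493-33334667 in hg38, minus strand) at 41.1 ± 7.5 TPM and NRP2 (chr2:205682501-205798131, plus strand) at 21.5 ± 2.79 TPM over all libraries (SD, n = 6). Both were lower in the PRDM16 libraries by their means, and neither difference passed the test. NRP1 had 80.8, 82.1 and 88.1 CPM in PRDM16 libraries, against 89.1, 109 and 95.3 CPM in NC libraries. The groups do not overlap, but the highest PRDM16 library lies close to the lowest NC library. Its log2 fold change was -0.22 ± 0.11 (SE), with an adjusted p of 0.320 over all genes tested in edgeR, and -0.13 without NC library 2, the highest. NRP2 had 114, 125 and 131 CPM in PRDM16 libraries, against 125, 133 and 145 CPM in NC libraries, with groups that overlap. Its log2 fold change was -0.12 ± 0.11, or -0.068 without PRDM16 library 1 and -0.059 without NC library 3. The share of NRP1 in the summed TPM of both neuropilins was 64.7 ± 0.869% in PRDM16 libraries and 66.2 ± 2.46% in NC libraries (SD, n = 3 each). The groups overlap in this share.

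Class A plexins, which signal for class 3 semaphorins together with neuropilins and also bind class 6 semaphorins directly, were led by PLXNA1 (chr3:126983115-127037389, plus strand) at 44.8 ± 1.78 TPM. PLXNA3 had 15.6 ± 1.18 TPM and PLXNA2 had 8.28 ± 0.734 TPM. PLXNA4 had 4 to 15 counts per library, or 0.0569 ± 0.0242 TPM, and was too low to be tested. PLXNA1 had 167, 161 and 161 CPM in PRDM16 libraries, against 147, 134 and 148 CPM in NC libraries. All 3 PRDM16 libraries lie above all NC libraries, with a log2 fold change of 0.19 ± 0.11 and an adjusted p of 0.354 in edgeR. The log2 fold changes of PLXNA2 and PLXNA3 were both 0.16 (SE 0.12 and 0.11), and their groups overlap. That of PLXNA2 was 0.10 without PRDM16 library 3.

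Class B plexins include PLXNB1, the receptor of SEMA4D, PLXNB2, a receptor of SEMA4C, and PLXNB3, the receptor of SEMA5A. PLXNB2 (chr22:50274979-50307646, minus strand) made up 46.4 ± 0.759% of the summed TPM of all plexins in PRDM16 libraries and 45.3 ± 0.809% in NC libraries (SD, n = 3 each). It had 679, 625 and 622 CPM in PRDM16 libraries, against 582, 483 and 536 CPM in NC libraries. The groups do not overlap, and the log2 fold change was 0.27 ± 0.12 with an unadjusted p of 0.0350 and an adjusted p of 0.302 in edgeR. PLXNB1 averaged 28.3 ± 0.983 TPM and PLXNB3 (chrX:153764249-153779341, plus strand) 24.6 ± 2.67 TPM over the 6 libraries. PLXNB3 had 70.8, 57.2 and 60.7 CPM in PRDM16 libraries, against 57.5, 48.4 and 48.0 CPM in NC libraries. The PRDM16 library 1 stands highest, the lowest PRDM16 library overlaps the highest NC library, and the log2 fold change was 0.29 ± 0.12 with an adjusted p of 0.298 in edgeR. For PLXNB1 the log2 fold change was 0.14 ± 0.11, or 0.089 without NC library 2, with groups that do not overlap.

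PLXND1 (chr3:129555214-129606676, minus strand), the receptor that SEMA3E can bind without a neuropilin, was the second plexin by level, at 58.1 ± 4.07 TPM. It had 162, 159 and 167 CPM in PRDM16 libraries, against 146, 129 and 142 CPM in NC libraries. The groups do not overlap, with a log2 fold change of 0.23 ± 0.11, an unadjusted p of 0.0477 and an adjusted p of 0.312 in edgeR. PLXNC1, a receptor of SEMA7A, had 1.04 ± 0.227 TPM and a log2 fold change of -0.06 ± 0.19. Its listed exons share 14.9% of their bases with CEP83 on the opposite strand, and since no source used here gives the strand setting of the counting, reads of the 2 genes cannot be told apart there.

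Over all plexins the summed level was 345 ± 17.9 TPM in PRDM16 libraries and 323 ± 19.0 TPM in NC libraries (SD, n = 3 each), with overlapping ranges. For the neuropilins it was 55.5 ± 6.49 TPM in PRDM16 libraries and 69.6 ± 7.78 TPM in NC libraries, where the highest PRDM16 library, at 62.7 TPM, lies just under the lowest NC library, at 63.6 TPM. TPM carries a shift of its own here: the median log2 fold change of all genes tested was -0.13 on the TPM scale and -0.02 in edgeR, so that TPM ratios are read against the first value. The log2 ratio of the neuropilin sums was -0.33 in TPM and -0.19 in CPM per kilobase, and on the second scale the groups overlap, with 20.2 to 22.4 in PRDM16 libraries and 22.3 to 26.0 in NC libraries. All plexins summed to 133 ± 4.82 CPM per kilobase in PRDM16 libraries and 113 ± 8.48 in NC libraries, which do not overlap on that scale. Which sums separate therefore depends on the scaling.

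**Figure D2:**
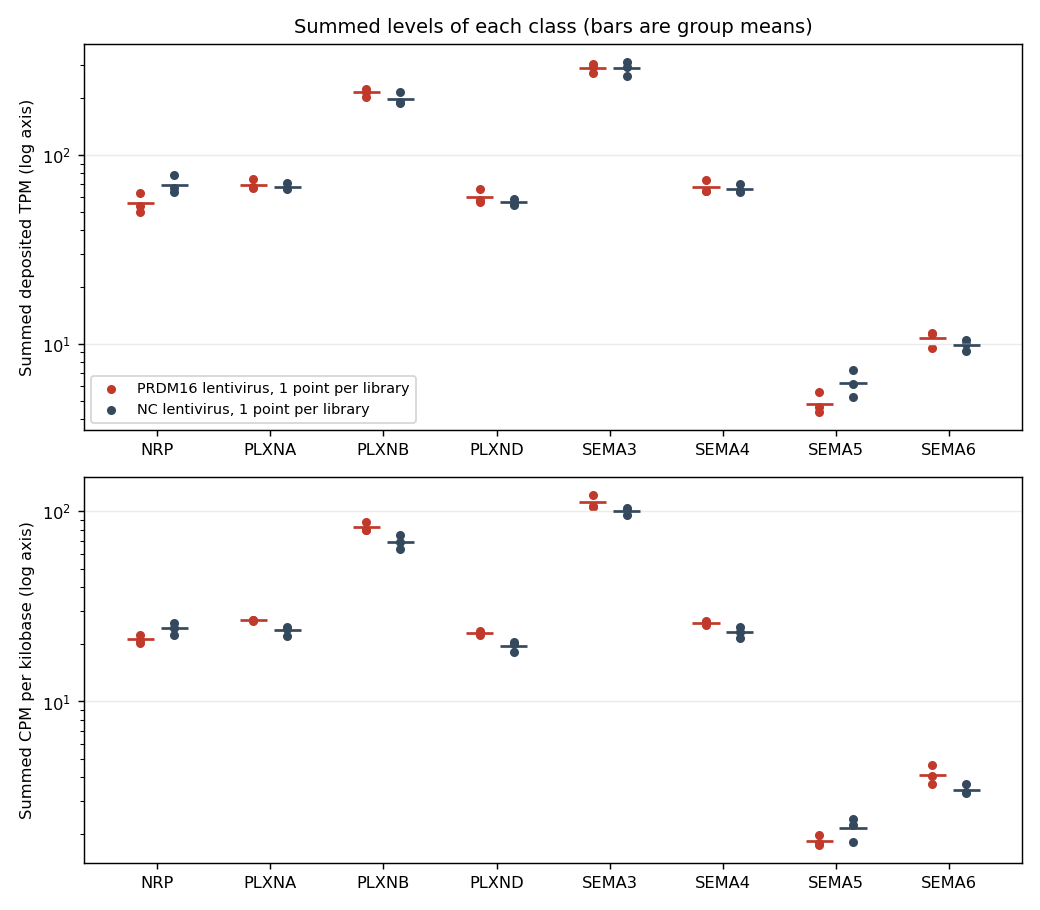
Summed deposited TPM (log axis) of the neuropilins, of 3 plexin classes and of 4 semaphorin classes, and the same sums in CPM per kilobase in the lower panel, with 1 point per library and a bar at each group mean, PRDM16 left of NC. In TPM the neuropilin groups do not overlap and the other 7 classes do, while in CPM per kilobase the neuropilins overlap and PLXNA, PLXNB, PLXND, SEMA3, SEMA4 and SEMA6 do not.

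Class 3 semaphorins, the secreted ligands, made up 77.8 ± 1.31% of the summed semaphorin TPM in PRDM16 libraries and 77.8 ± 1.27% in NC libraries when SEMA7A is left out (SD, n = 3 each). They lie at different places in the genome. SEMA3B and SEMA3F are close neighbours on chromosome 3, in a region often lost in lung cancer, where both have been studied as tumour suppressors. SEMA3A, SEMA3C, SEMA3D and SEMA3E lie in 1 stretch of chromosome 7. The 300 bases around the deposited start of 4 of these genes follow, 250 before and 50 after it, as RefSeq gives them for GRCh38.p14 in the direction of the gene. These 4 genes were picked after values were seen, as 2 genes from each of these chromosomes. Log2 fold changes were above 0 for SEMA3B and SEMA3F and below 0 for SEMA3C and SEMA3E. Capitals mark each CG dinucleotide, the motif searched, which reads the same on both strands. The windows are chr3:50267402-50267701 (plus strand) for SEMA3B, chr3:50154808-50155107 (plus) for SEMA3F, chr7:80922340-80922639 (minus) for SEMA3C and chr7:83649090-83649389 (minus) for SEMA3E.
SEMA3B: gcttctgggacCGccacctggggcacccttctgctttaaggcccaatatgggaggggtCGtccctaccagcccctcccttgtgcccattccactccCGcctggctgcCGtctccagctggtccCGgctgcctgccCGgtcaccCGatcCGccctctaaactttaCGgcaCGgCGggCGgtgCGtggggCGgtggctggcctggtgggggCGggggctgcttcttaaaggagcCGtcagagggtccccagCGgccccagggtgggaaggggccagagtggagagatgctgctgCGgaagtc
SEMA3F: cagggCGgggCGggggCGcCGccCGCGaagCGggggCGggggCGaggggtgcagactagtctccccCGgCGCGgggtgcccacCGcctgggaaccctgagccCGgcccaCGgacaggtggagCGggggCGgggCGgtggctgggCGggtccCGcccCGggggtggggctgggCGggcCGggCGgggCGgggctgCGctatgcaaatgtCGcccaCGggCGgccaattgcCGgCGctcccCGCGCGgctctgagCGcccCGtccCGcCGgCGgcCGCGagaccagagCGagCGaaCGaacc
SEMA3C: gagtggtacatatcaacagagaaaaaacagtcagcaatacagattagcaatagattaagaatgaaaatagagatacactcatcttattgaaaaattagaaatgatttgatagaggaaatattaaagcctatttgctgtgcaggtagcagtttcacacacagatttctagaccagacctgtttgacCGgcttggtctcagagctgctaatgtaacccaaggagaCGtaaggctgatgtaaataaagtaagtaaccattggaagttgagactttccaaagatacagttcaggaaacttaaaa
SEMA3E: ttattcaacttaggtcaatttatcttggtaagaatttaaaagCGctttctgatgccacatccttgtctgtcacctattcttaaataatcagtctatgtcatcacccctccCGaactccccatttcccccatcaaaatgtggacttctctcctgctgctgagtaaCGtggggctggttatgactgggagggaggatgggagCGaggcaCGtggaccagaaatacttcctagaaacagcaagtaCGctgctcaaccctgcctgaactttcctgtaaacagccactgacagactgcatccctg

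The SEMA3F window holds 44 CG dinucleotides and the SEMA3B window 18, against 6 for SEMA3E and 2 for SEMA3C. Among 35116 RefSeq windows of that length, 4.19% hold at least as many as SEMA3F, 44.5% at least as many as SEMA3B, 66.3% at least as many as SEMA3E and 89.0% at least as many as SEMA3C. These counts hold for 1 start of each gene. Over all their annotated windows the highest count is 47 for SEMA3F (3 windows), 46 for SEMA3C (2 windows), 32 for SEMA3B (5 windows) and 6 for SEMA3E (2 windows), so that SEMA3C then exceeds SEMA3B. Of the 31 genes, 27 have at least 1 window. By the highest count per gene, PLXNB2 (14) and PLXNB3 (15) had log2 fold changes above 0, at 0.27 and 0.29. SEMA5A (39) and NRP2 (33) lay below 0, at -0.23 and -0.12, while PLXNA1 (54) lay above it, at 0.19. Whether direction goes with this count was not tested. The highest count per gene had a median of 33 over the 21 genes at 1 TPM or more and 27.5 over the 6 genes under 1 TPM, against 16 over the 27305 genes of the table. SEMA3A, SEMA6A, SEMA6B and NRP1 were not matched.

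SEMA3B had 295, 259 and 229 CPM in PRDM16 libraries, against 221, 202 and 208 CPM in NC libraries. All 3 PRDM16 libraries lie above the NC libraries, library 1 by the most. Its log2 fold change was 0.31 ± 0.12, with the smallest p of all members (0.0145 unadjusted, 0.297 adjusted over all genes in edgeR). SEMA3F had 46.1, 38.8 and 39.2 CPM in PRDM16 libraries, against 37.5, 30.1 and 34.7 CPM in NC libraries. The groups do not overlap, and the log2 fold change was 0.28 ± 0.13 with an adjusted p of 0.303 in edgeR. A short antisense gene, SEMA3F-AS1, covers 2.32% of its exon bases.

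The 4 class 3 genes on chromosome 7 had log2 fold changes below 0, and none passed the test. SEMA3C had 127, 109 and 140.1 CPM in PRDM16 libraries, against 138, 174 and 128 CPM in NC libraries. NC library 2 stands apart and the groups overlap, with a log2 fold change of -0.23 ± 0.13, and -0.08 without that library or -0.13 without PRDM16 library 2. SEMA3A, the founding growth cone collapsing factor, had 14.1, 12.3 and 14.2 CPM in PRDM16 libraries, against 14.7, 18.9 and 14.5 CPM in NC libraries. Its groups do not overlap by a narrow margin, and the log2 fold change was -0.25 ± 0.14, and -0.10 without NC library 2. SEMA3E, the ligand of PLXND1, had 14.7, 13.8 and 16.4 CPM in PRDM16 libraries, against 13.4, 23.4 and 16.4 CPM in NC libraries. Its log2 fold change of -0.25 ± 0.17 became 0.01 without NC library 2, the highest of the 6, and -0.42 without NC library 1. SEMA3D had 0.222 ± 0.0748 TPM over the 6 libraries and a log2 fold change of -0.16 ± 0.34, and SEMA3G, which has been described in podocytes, had 1 to 8 counts per library and was not tested.

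Within class 3, the share of SEMA3B in the summed TPM was 66.8 ± 3.87% in PRDM16 libraries and 60.03 ± 3.65% in NC libraries (SD, n = 3 each). The lowest PRDM16 library (62.3%) and the highest NC library (62.2%) nearly touch. The 4 chromosome 7 genes together held 25.4 ± 3.84% in PRDM16 libraries and 32.8 ± 4.58% in NC libraries, where the highest PRDM16 library, at 29.8%, lies just under the lowest NC library, at 30.1%. The SEMA3B share was lowest, and the chromosome 7 share highest, in NC library 2, at 55.8% and 38.1%. The sum of the class was 290.0 ± 15.1 TPM in PRDM16 libraries and 288 ± 25.7 TPM in NC libraries, with overlapping ranges, but 112 ± 9.56 CPM per kilobase in PRDM16 libraries and 100.4 ± 4.11 in NC libraries, without overlap (log2 ratios of 0.0076 and 0.15).

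Class 4 semaphorins are membrane proteins. SEMA4B averaged 33.2 ± 2.51 TPM, SEMA4C 11.8 ± 0.585 TPM, SEMA4D, which is shed from cells and binds PLXNB1, 10.2 ± 1.62 TPM and SEMA4F 9.49 ± 0.439 TPM (SD, n = 6). SEMA4B (chr15:90184920-90229661, plus strand) had 54.7, 52.5 and 56.2 CPM in PRDM16 libraries, against 48.3, 42.6 and 47.2 CPM in NC libraries. The groups do not overlap, with a log2 fold change of 0.24 ± 0.11 and an adjusted p of 0.310 in edgeR. SEMA4C had 26.1, 24.7 and 24.5 CPM in PRDM16 libraries, against 21.8, 20.8 and 21.6 CPM in NC libraries, again with no overlap and a log2 fold change of 0.23 ± 0.12. SEMA4F had a log2 fold change of 0.10 ± 0.12 in edgeR, 0.043 without NC library 2 and -0.04 on the TPM scale, and SEMA4A, at 1.20 ± 0.184 TPM, had 0.09 ± 0.24 in edgeR and -0.04 on the TPM scale. SEMA4D had a log2 fold change of -0.06 ± 0.13, and 9.34% of its exon bases are shared with SECISBP2 on the opposite strand. SEMA4G averaged 0.873 ± 0.270 TPM with a log2 fold change of -0.34 ± 0.26, or -0.14 when NC library 2 was left out. Leaving out PRDM16 libraries 1 and 2 in turn gave -0.20 and -0.54. In its exons, 15.6% of the bases are shared with MRPL43, which has a mean of 1620 counts against 40.5 for SEMA4G.

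Classes 5 and 6 are also bound to the membrane. SEMA5A, the ligand of PLXNB3, had 27.7, 28.8 and 31.6 CPM in PRDM16 libraries, against 29.2, 38.5 and 36.0 CPM in NC libraries. The groups overlap, with a log2 fold change of -0.23 ± 0.13, and -0.14 without NC library 2. SEMA6B (chr19:4542588-4581484, minus strand) had the largest positive log2 fold change of the tested members, at 0.34 ± 0.14, with an adjusted p of 0.298 in edgeR. Its values were 16.4, 12.7 and 13.7 CPM in PRDM16 libraries, against 11.9, 10.7 and 11.2 CPM in NC libraries, and they do not overlap. SEMA6C had 1.55 ± 0.288 TPM and a log2 fold change of -0.15 ± 0.19, between -0.25 and -0.062 when 1 library was left out. SEMA6A had 5 to 16 counts per library, with a log2 fold change of -0.13 ± 0.44 and 3.61% of its exon bases under the antisense gene SEMA6A-AS1, SEMA5B 0 to 5 counts, and SEMA6D 0 counts in every library, which allows up to 3 counts each.

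SEMA7A, a membrane-anchored semaphorin that binds PLXNC1 and integrins, is listed on chromosome 15 (chr15:74409289-74433958, minus strand), with 0 to 2 counts per library, and again as SEMA7A-2 on a scaffold outside the chromosomes. SEMA7A-2 had 1223, 2681 and 659 counts in PRDM16 libraries, against 1295, 2830 and 321 counts in NC libraries. These are 63.7, 96.3 and 15.7 CPM in PRDM16 libraries, against 56.2, 98.2 and 15.4 CPM in NC libraries. Library 2 is the highest and library 3 the lowest in both groups, the ratio of highest to lowest is 6.37, and the log2 fold change of 0.04 ± 0.98 therefore has a wide error. The other 20 members with a mean of at least 5 CPM varied between 1.20-fold and 1.74-fold over the 6 libraries, SEMA3E the most. UBL7-2, another gene of that scaffold, also varied 6.08-fold, with its highest value in PRDM16 library 3, where SEMA7A-2 was low. Among tested listings with at least 5 CPM, 129 of 354 listings of genes with several places (36.4%) varied at least 3-fold, against 6 of 10487 listings of genes with 1 place (0.0572%). How reads were shared among the places of a gene is not given in the labels and was not tested.

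**Figure D3:**
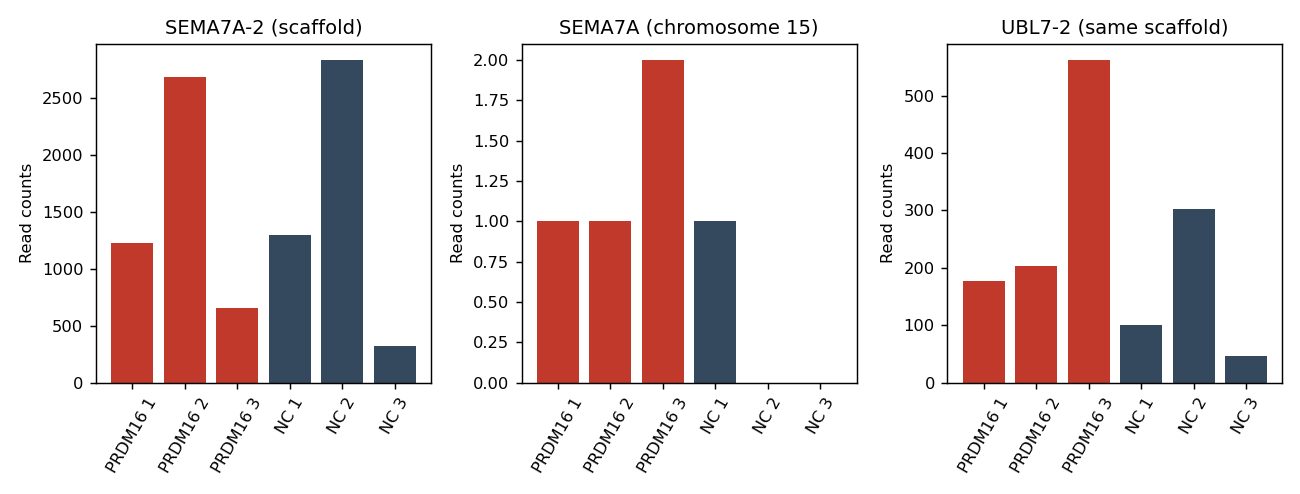
Read counts of SEMA7A-2, of the SEMA7A listing on chromosome 15 and of UBL7-2 in each library, PRDM16 libraries in red and NC libraries in dark blue, with a separate axis for each panel. SEMA7A-2 has between 321 and 2830 counts and the chromosome 15 listing at most 2.

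Set against all genes, no member was called between the PRDM16 and NC libraries. Of the 27 tested listings (17 of semaphorins, 8 of plexins and 2 of neuropilins), 0 passed an adjusted p of 0.05 in edgeR, where 0.065% of all 15381 genes tested passed. None of the adjusted p available in 17 settings, limma among them, passed, and the smallest was 0.113, without NC library 1. DESeq2 gave an adjusted p for 18 of the 27 and NA for the other 9, SEMA6B, SEMA3A and SEMA3E among them. At an unadjusted p under 0.05 there were 7 higher members, which are SEMA3B, SEMA6B, PLXNB3, PLXNB2, SEMA3F, SEMA4B and PLXND1, and 0 lower ones. The background at that threshold is 9.23% of all genes higher and 6.76% lower, or 16% in all. The number of higher members depended on single libraries, with 0 when PRDM16 library 1 was left out, 4 when PRDM16 library 2 was, 4 when NC library 2 was and 2 when NC library 3 was.

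Groups did not overlap in CPM for 10 higher members and for 2 lower members, NRP1 and SEMA3A, against a background of 12.2% higher and 8.77% lower, or 21% of all genes. A log2 fold change above 0 was found for 15 of the 27, where 46.9% of all genes had one. The median log2 fold change of the members was 0.09 in edgeR, against -0.02 for all genes tested, and -0.04 on the TPM scale, against -0.13. By kind, 7 of 8 plexins, 8 of 17 semaphorin listings and 0 of 2 neuropilins were above 0 in edgeR. PLXNC1 was the plexin below 0.

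**Figure D4:**
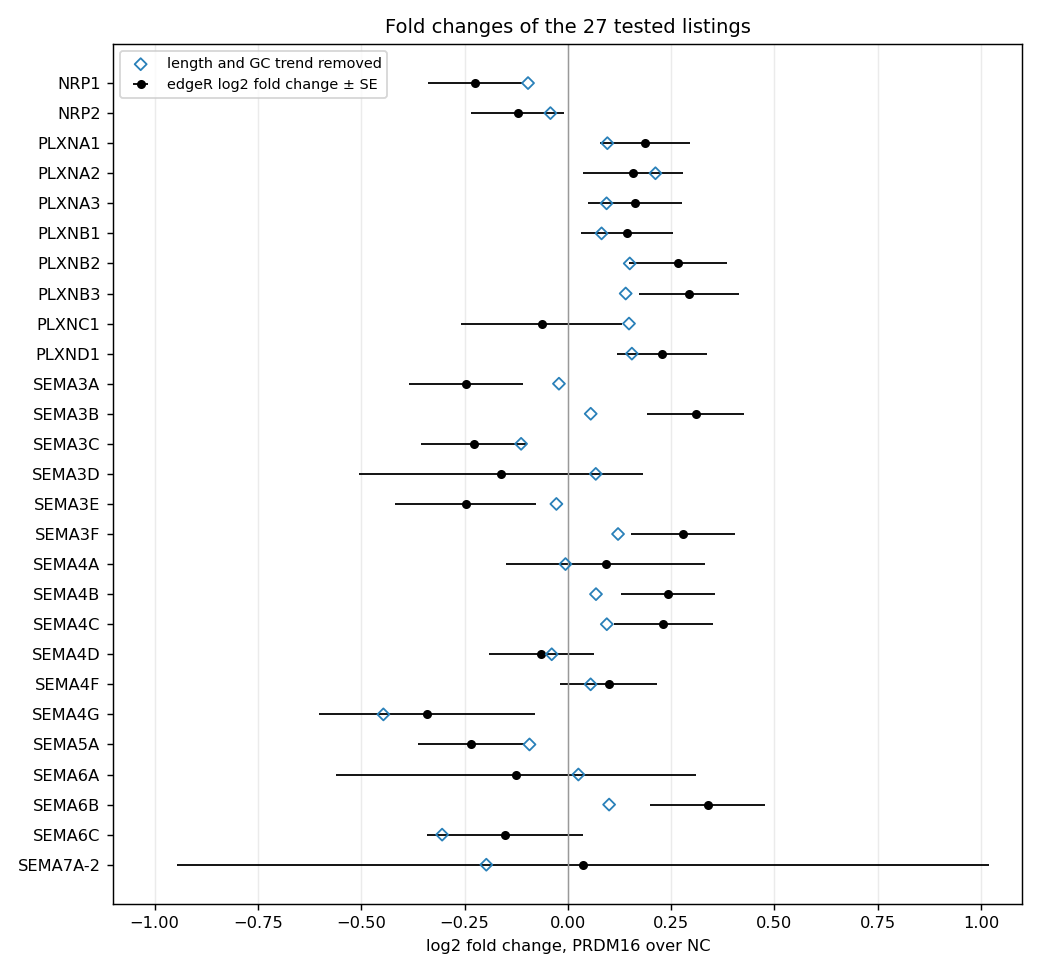
Log2 fold change of PRDM16 over NC for each of the 27 tested listings, with the standard error as a bar, and the value after the trend with length and GC content is removed as an open diamond. The fitted values lie between -0.34 and 0.34, the error of SEMA7A-2 is the widest, and most diamonds lie nearer to 0 than their points.

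The direction of the members went with the base composition of their transcripts. Across the 27 tested listings, Spearman's correlation between log2 fold change and GC content was 0.781, against 0.639 over 13892 genes, both descriptions across genes of the same libraries. Of 19 listings with a GC content of at least 50%, 15 had a log2 fold change above 0, with a median of 0.16, and the others were NRP2, SEMA4D, SEMA4G and SEMA6C. Of 8 listings under 50%, which are NRP1, PLXNC1, SEMA5A, SEMA6A and the 4 class 3 genes on chromosome 7, 0 were above 0, with a median of -0.23. NC library 2 stood apart most in this respect (SEMA7A-2 left out). Its mean deviation (log2 CPM) was 0.30 over the members under 50% and -0.14 over those at 50% or more. PRDM16 library 2 deviated the other way, by -0.21 over the members under 50% and 0.05 over those at 50% or more.

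Without NC library 2, 4 of the 8 members under 50% GC were above 0 and their median was -0.04, and the Spearman correlation over all 27 was 0.608. With the trend over length and GC content removed from each library, that correlation was 0.275, the median was 0.08 for members at 50% or more and -0.02 for those under 50%, and 2 of the 27 members (7.41%) had an unadjusted p under 0.05, against 6.55% of all genes in that fit. The log2 fold change of SEMA3B was then 0.06, that of SEMA6B 0.10, that of PLXNB2 0.15 and that of NRP1 -0.10. All 8 tested plexins were above 0 with the trend removed, between 0.08 and 0.21, with a median of 0.14. Of all genes 51.5% were above 0, and their median was 0.0052. Among the other members, 8 of 17 semaphorin listings and 0 of 2 neuropilins were above 0 in that fit. The lowest adjusted p of any member there was 0.749 in edgeR.

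**Figure D5:**
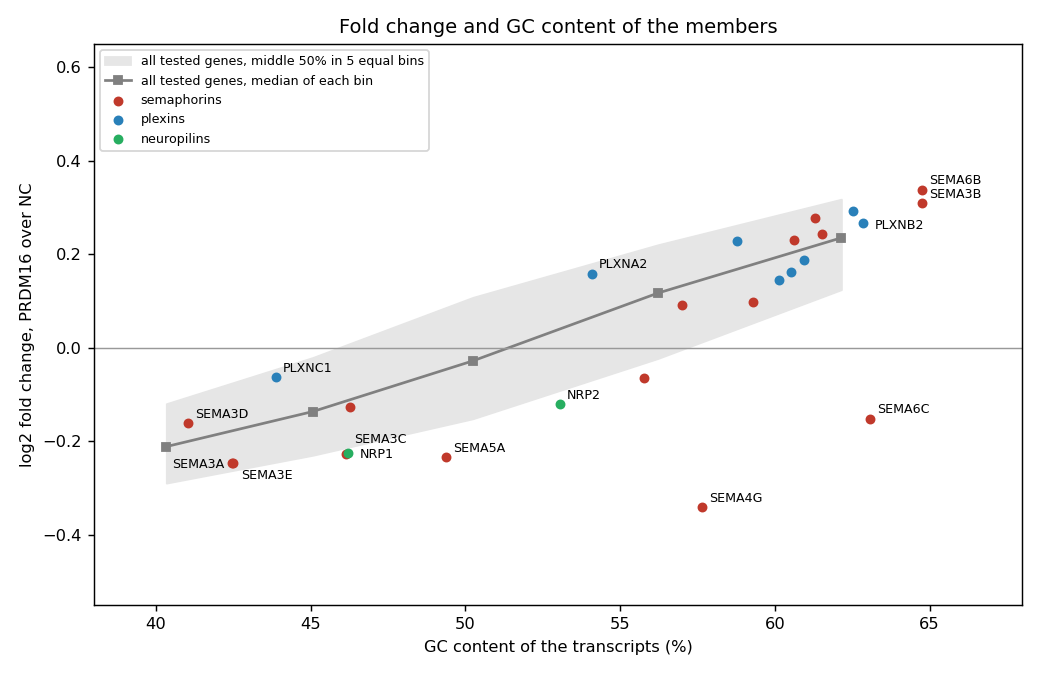
Log2 fold change of PRDM16 over NC against the GC content of the transcripts, for 26 members without SEMA7A-2 (points) and for all genes with a GC value (median and middle 50% in each of 5 bins of equal size). Members poor in GC lie below 0 and most of those rich in GC above it, along the medians of all genes, which run between -0.21 and 0.24.

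Other genes of the pathway were described by 4 lists, none of which had a called gene in any alternative tried, although DESeq2 gave an adjusted p for only 65 of their 91 tested genes. Of 38 tested effectors of semaphorin signalling, 0 were called, 6 had an unadjusted p under 0.05 with a higher level and 4 with a lower one, where 9.23% and 6.76% of all genes had one, and the median log2 fold change was -0.02, as over all genes. As shares of the list these are 15.8% and 10.5%. The smallest p values belonged to RRAS, a small GTPase reported as a target of plexins (0.32 ± 0.11), KIF13A, a kinesin (-0.36 ± 0.13), and DPYSL4, a collapsin response mediator protein (0.35 ± 0.13), with adjusted p between 0.291 and 0.297 in edgeR. Groups did not overlap for 13 of the 38, these 3 among them, against 21% of all genes. The 3 were picked by their p, so their separation is no further evidence. With the trend removed, the log2 fold changes were -0.03 for RRAS, -0.19 for KIF13A and 0.15 for DPYSL4. That of KIF13A was -0.23 without NC library 2.

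The list of co-receptors and alternative receptors also holds growth factors, of which VEGFA, VEGFB, VEGFC and PGF were tested. Among its 19 tested genes, 0 were called. At an unadjusted p under 0.05, 3 (15.8%) were higher and 1 (5.26%) lower, against 9.23% and 6.76% of all genes. The median log2 fold change was 0.09, against -0.02 for all genes. Levels within the list differed widely. Integrin beta 1 (ITGB1) had 423 TPM and L1CAM, a partner of neuropilin 1, had 304 TPM on average. MET, a partner of class B plexins, had 126 TPM. MST1R, NRCAM and CD72 averaged 0.440, 0.918 and 0.973 TPM, and CHL1 and the VEGF receptor KDR had 0 counts. The smallest p values were those of GPC1, a heparan sulfate proteoglycan (0.32 ± 0.12), ITGAV, an integrin subunit (-0.34 ± 0.13, and -0.15 without NC library 2), and PTK7, whose fly relative associates with plexin A (0.25 ± 0.12).

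A further list holds proteases that process semaphorins and protease inhibitors, of which RECK, TIMP1 and TIMP2 were tested. Of its 9 tested genes, 0 were called. At an unadjusted p under 0.05, 1 was higher and 1 lower (11.1% each), and the median was 0.04. The values for all genes were 9.23%, 6.76% and -0.02. MMP14, which can shed SEMA4D, was the highest at 854 TPM. FURIN, which cleaves class 3 semaphorins, had a log2 fold change of 0.22 ± 0.12, or 0.15 without NC library 2. The inhibitor TIMP1 had 0.26 ± 0.11 and the sheddase ADAM10 -0.34 ± 0.14, or -0.12 for ADAM10 without NC library 2. After the length and GC trend was removed, FURIN had 0.06, TIMP1 0.07 and ADAM10 -0.08. Of 25 tested genes of other guidance families, 0 were called, 2 were higher (EPHB4 at 0.25 ± 0.11 and EPHA2 at 0.26 ± 0.13) and 0 lower at an unadjusted p under 0.05, which is 8% higher against 9.23% of all genes, and the median was 0.08. The third by p was EFNA5, an ephrin, at -0.23 ± 0.12. In the fit with the trend removed, EPHB4 had 0.09, EPHA2 0.08 and EFNA5 -0.08.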

How the data were processed

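Gene expression was measured in 6 RNA sequencing libraries, 3 with PRDM16 lentivirus and 3 with NC lentivirus. The sample titles gave groups and replicate numbers. Per the labels' protocols, RNA was extracted with Trizol, captured on oligo(dT) beads, fragmented and copied from random hexamers. The submitters' processing notes name the build hg38. The aligner, counting tool, strand setting and annotation were not given in the sources used here. For each library the authors deposited raw read counts per gene, TPM and FPKM, per the file headers. The deposited TPM sum to 1000000 in each library. Lines of 7 genes, broken in each table, were mended.

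Genes were tested on the deposited counts by edgeR 4.0.16 in R 4.3.3 (quasi-likelihood test, TMM factors, robust estimation, default low-count filter with a minimum count of 10, minimum total of 15). This left 15381 genes. The Benjamini-Hochberg adjustment ran over all of them, with a threshold of 0.05. The common biological coefficient of variation was 0.146. CPM are scaled by TMM factors. SE are those of log2 fold changes. GC content is the median over GENCODE transcripts of each gene and was found for 13892 genes (90.3%). The trend over length and GC content was removed with offsets fitted to each library. PRDM16 was tested with log2(CPM + 0.1) in the permutation test. PCR copies are not independent molecules, so floors speak of counting error alone.

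The alternatives were DESeq2 1.42.0, limma 3.58.1 with voom, other size factors, no filter, each library left out, a replicate block, the removed trend, summed listings and, chosen after seeing the data, limma on log2(TPM + 0.5). Levels were also set in FPKM as the authors deposited them. The members and the gene lists were chosen with earlier results of these data known, and no set was tested. All members are named, with a value in every library for the 6 highest by mean TPM and the 6 with the smallest p, and other values added after they were seen. In each list up to 3 genes with the smallest p are named. Genes given there for their level (ITGB1, L1CAM, MET, MST1R, NRCAM, CD72, CHL1, KDR, MMP14) were picked after their values were seen. Those named there for their kind alone are VEGFA, VEGFB, VEGFC, PGF, RECK and TIMP2. Promoter windows and the promoter, GC, chromosome 7 and SEMA7A descriptions were likewise chosen after values were seen. The script for the tests was tested on simulated data.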

Additional observations from a re-analysis of the deposited data

How the results depend on the processing

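No member was called under any alternative tried, but DESeq2 gave no adjusted p for 9 of the 27 (PLXNC1, SEMA3A, SEMA3D, SEMA3E, SEMA4A, SEMA4G, SEMA6A, SEMA6B and SEMA6C). Of 423 alternative values of member fold changes, 398 kept their direction and 25 turned it, in 8 of the 27 tested listings (the other 19 never turned). With the length and GC trend removed, the log2 fold changes were 0.15 for PLXNC1, 0.068 for SEMA3D, -0.0057 for SEMA4A, 0.026 for SEMA6A and -0.20 for SEMA7A-2. With the replicate block and that trend removed they were 0.13 for PLXNC1, 0.11 for SEMA3D, -0.016 for SEMA4A, 0.056 for SEMA6A and -0.13 for SEMA7A-2, and on the TPM scale they were -0.043 for SEMA4A, -0.036 for SEMA4F and -0.078 for SEMA7A-2. Leaving out 1 library gave ranges of -0.24 to 0.084 for PLXNC1, -0.41 to 0.047 for SEMA3D, -0.42 to 0.014 for SEMA3E, -0.14 to 0.078 for SEMA4D, -0.35 to 0.14 for SEMA6A and -0.53 to 0.70 for SEMA7A-2.

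The 10 genes called in all became 28 with DESeq2, 4 with voom, 107 with no filter, 5 with the trend removed, 4 with the block and the trend removed, 18 with listings summed, 3 with limma on TPM, and 7 to 173 without 1 library (173 without NC library 3, 59 without PRDM16 library 2, 20 without PRDM16 library 1). The 7 higher members at an unadjusted p under 0.05 became 4 with upper-quartile factors, 2 with the trend removed, 1 with the block and the trend removed, 0 with limma on TPM and 0 to 7 without 1 library. Lower members, 0 in the reported test, were 1 with DESeq2, 1 with limma on TPM and 0 to 3 without 1 library. The median member log2 fold change of 0.09 was -0.043 on the TPM scale and 0.066 to 0.15 without 1 library. PRDM16 missed the threshold with the block and the trend removed (6.98) and with limma on TPM (0.44), and DESeq2 gave it no adjusted p. Log2 ratios of class sums moved with the unit: PLXNA 0.12 in FPKM and 0.18 in CPM per kilobase, the unit in which PLXNB came to 0.25, PLXND 0.23, SEMA3 0.15, SEMA4 0.16 and SEMA6 0.26. The cause of these changes was not tested, and the shift of TPM against edgeR was only described.

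Same-numbered libraries of the 2 groups did not deviate together (r of 0.094, -0.104 and -0.131), so the numbers were not used as pairs. With the replicate block, 10 genes and 0 members were called, and 5 members were higher at an unadjusted p under 0.05. Counts under about 20 per library limit SEMA6A, and the untested SEMA3G, SEMA5B, SEMA6D and PLXNA4. Low counts also limit SEMA3D, which had 8 to 30 per library.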
